A study of Mus musculus with 18 samples.

Results

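MC3T3-E1 pre-osteoblasts, an established mouse cell line from calvarial bone, were grown under daily ultrasound on a membrane labelled PLLA/ZnO@Col and on one labelled PLLA, and their RNA was compared. The comparison was defined by the labels alone and uses 6 of the 18 RNA sequencing libraries of the series, 3 of +US PLLA/ZnO@Col and 3 of +US PLLA. PLLA is poly-L-lactic acid, ZnO is zinc oxide, and @Col marks the collagen-coated membrane, so the membranes differ in both zinc oxide and collagen, whose parts in a difference between these 2 groups cannot be told apart. Both groups had ultrasound for 10 min every day, were seeded at 20000 cells on discs 15 mm across and were harvested after 5 days. Libraries of +US PLLA/ZnO and of the 3 membranes without ultrasound (-US) complete the series. Whether the 3 libraries of a group are from different cultures is not in the labels, and the p-values measure only how much these libraries varied, which may be technical variation. No animal, transgene or mutant allele is named in the labels.

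Pre-osteoblasts sense the surface under them through integrins, which bind collagen or fibronectin and link to actin at focal adhesions, and through channels that open under membrane tension. Poly-L-lactic acid and zinc oxide are piezoelectric, so that mechanical waves can polarise them, and type I collagen is the main organic component of bone. Interferon-response genes, described first below, encode antiviral proteins induced by transcription factors, among them those of the IRF family, through promoter elements built from repeats of GAAA, and osteoblast-lineage cells express them at a low level at rest.

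No gene passed the test for +US PLLA/ZnO@Col against +US PLLA: 0 of 11936 tested genes (0%) reached an adjusted p under 0.05 in edgeR's quasi-likelihood test, and 0% did so in the higher direction. The smallest adjusted p was 0.561. Without adjustment, 1021 genes had a p under 0.05, where 5% of the tested genes is 597. Of these, 735 (6.16% of the tested genes) were higher and 286 (2.4%) were lower on PLLA/ZnO@Col. The count was 1062, 417 and 710 without +US PLLA/ZnO@Col replicates 1, 2 and 3, and 496, 409 and 1726 without +US PLLA replicates 1, 2 and 3. Without +US PLLA/ZnO@Col replicate 1 the split was 397 higher and 665 lower, and without +US PLLA replicate 3 it was 780 higher and 946 lower. With DESeq2's size factors in edgeR that split was 532 higher and 399 lower. DESeq2 itself called 7 genes, limma on log2(FPKM + 1) called 0, and limma voom with library weights called 5162. In that last fit +US PLLA/ZnO@Col replicate 1 had a weight of 0.281 and +US PLLA replicate 3 a weight of 0.24, while the other 4 libraries had weights from 1.22 to 2.83. The values below are therefore levels and differences between these libraries, and no gene is reported as changed.

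These 2 libraries stood apart from their groups. On the first principal component, with 44.4% of the variance, the +US PLLA/ZnO@Col libraries lay at 15.4, 49.1 and 31.9, and the +US PLLA libraries at -19.9, -27.0 and 36.5. The second, with 19% of the variance, had the +US PLLA/ZnO@Col libraries at -44.3, 19.6 and 22.7, and the +US PLLA libraries at 5.3, 1.9 and 21.5. Near +US PLLA/ZnO@Col replicate 1 on it lay -US PLLA/ZnO@Col replicates 1 and 3, at -45.2 and -49.8. By correlation of log2 CPM (counts scaled to the library total), +US PLLA/ZnO@Col replicates 2 and 3 were closer to +US PLLA replicate 3 (r of 0.982 and 0.985) than to their own replicate 1 (0.952 and 0.956). Reads of 4 Y-linked genes made up 3.12, 41.7 and 46.9 CPM in +US PLLA/ZnO@Col and 110.6, 124.9 and 37.9 CPM in +US PLLA. Mitochondrially encoded reads were 2.27%, 1.58% and 1.77% of counts in +US PLLA/ZnO@Col, and 2.63%, 4.23% and 1.87% in +US PLLA. Library totals were 50664683 to 62419655 counts in +US PLLA/ZnO@Col and 56472522 to 78039543 in +US PLLA.

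The differences also followed the GC content of the transcripts. Across 5 equal bins of the tested genes from low to high GC content, the median log2 fold change of +US PLLA/ZnO@Col over +US PLLA was -0.50, -0.15, 0.06, 0.19 and 0.24. The 735 higher genes had a median GC content of 55.9%, the 286 lower genes 44.9% and all tested genes 50.6%. The level of the most GC-rich bin relative to the most GC-poor bin (log2, against the mean of all libraries) was 0.24, 1.05 and 0.76 in the +US PLLA/ZnO@Col libraries, and -0.29, -0.45 and 0.67 in the +US PLLA libraries. The groups overlapped, because +US PLLA replicate 3 lay among the PLLA/ZnO@Col libraries. A fit with an offset for GC content, chosen after seeing the data, called 0 genes, with 293 higher and 261 lower at an unadjusted p under 0.05. Its values are given below for the genes it moved by over 1.5 times and for most lists.

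**Figure D1:**
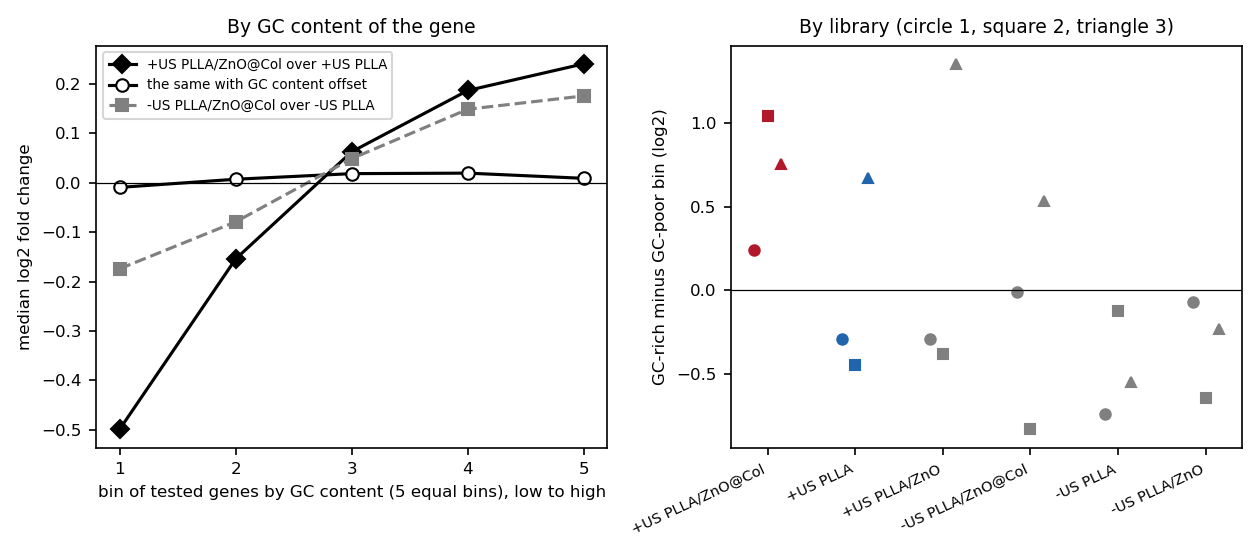
Left, the median log2 fold change of each of 5 equal bins of the tested genes by GC content, with and without an offset for GC content, and the same membranes without ultrasound; right, the log2 level of the most GC-rich bin minus the most GC-poor bin in each library, 1 symbol per library. The main comparison runs between -0.50 and 0.24 across bins, and +US PLLA replicate 3, at 0.67, lies among the +US PLLA/ZnO@Col libraries.

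Most interferon-response genes had lower levels on PLLA/ZnO@Col. This list, like the others below, was chosen with earlier results of these data known. Shares of list members set beside those of all tested genes are therefore descriptive. Of 42 listed genes 34 were tested, of which 30 were lower and 4 higher, with a median log2 fold change of -0.44, against a median of 0.03 and 5650 lower genes of 11936 over all tested genes. Of the 34, 10 were lower at an unadjusted p under 0.05 (2.4% of all genes were) and 0 were higher. That 10 was 11, 8 and 13 without +US PLLA/ZnO@Col replicates 1, 2 and 3, and 5, 9 and 13 without +US PLLA replicates 1, 2 and 3. Over all 11936 tested genes the matching lower counts were 665, 153 and 348, and 92, 100 and 946, against 286 with all libraries. In FPKM (fragments per transcript length and library total), 15 of the 34 had replicates that did not overlap in the lower direction, against 10.8% of all tested genes, and 0 in the higher direction, against 6.18% of all tested genes. On the scale of TMM-normalised CPM the genes without overlap numbered 1969 higher and 585 lower over all tested genes, against 738 and 1295 in FPKM. The list's median lay between -0.52 and -0.36 under the 22 alternatives run for the lists, 1 of which kept 21 members, and was -0.41 without the 2 libraries that stood apart and -0.36 with the GC offset, where 33 of 34 were lower.

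The interferon genes with the smallest p-values were Ifi44, an interferon-induced protein, Gbp3, an interferon-induced GTPase, and Parp9, an ADP-ribosyltransferase family member that works with Dtx3l. Ifi44 had 0.274, 0.249 and 0.567 FPKM in the +US PLLA/ZnO@Col libraries, against 1.64, 1.55 and 0.773 FPKM in the +US PLLA libraries. Among the libraries compared, Ifi44 reached the 1 FPKM of the expression filter only in +US PLLA, the group where it was higher. Gbp3 had 0.62, 0.764 and 1.07 FPKM in +US PLLA/ZnO@Col, against 3.62, 2.44 and 1.40 FPKM in +US PLLA. Parp9 had 3.09, 2.32 and 2.70 FPKM in +US PLLA/ZnO@Col, against 6.20, 5.21 and 4.88 FPKM in +US PLLA. In each of the 3 genes the groups did not overlap, and +US PLLA replicate 3 was the library nearest to PLLA/ZnO@Col. The log2 fold changes were -1.79 (SE 0.50) for Ifi44, -1.53 (SE 0.44) for Gbp3 and -0.92 (SE 0.23) for Parp9, with an adjusted p of 0.561 for each in edgeR's quasi-likelihood test. Parp14, another family member, was at -0.83 (unadjusted p 0.0252) and Dtx3l, the partner of Parp9, at -0.49 (unadjusted p 0.0626).

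Promoters of these genes are shown because interferon-induced transcription acts through them. The sequences are from RefSeq on GRCm38.p6, run from 250 bases before the start to 50 after it, and are written in the direction of transcription, with matches to GAAANNGAAA on either strand in capitals, overlapping matches as 1 run. Gbp3 lies at chr3:142559794-142560093 (+) for the first of its 2 entries, Ifit3 at chr19:34583279-34583578 (+) and Ifi44 at chr3:151749861-151750160 (-).
Gbp3: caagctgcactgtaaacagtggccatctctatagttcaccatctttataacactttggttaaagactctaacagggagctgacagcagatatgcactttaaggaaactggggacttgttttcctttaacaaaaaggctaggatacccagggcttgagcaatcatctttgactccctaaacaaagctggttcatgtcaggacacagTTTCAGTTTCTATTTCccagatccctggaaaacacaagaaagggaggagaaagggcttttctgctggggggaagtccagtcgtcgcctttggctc
Ifit3: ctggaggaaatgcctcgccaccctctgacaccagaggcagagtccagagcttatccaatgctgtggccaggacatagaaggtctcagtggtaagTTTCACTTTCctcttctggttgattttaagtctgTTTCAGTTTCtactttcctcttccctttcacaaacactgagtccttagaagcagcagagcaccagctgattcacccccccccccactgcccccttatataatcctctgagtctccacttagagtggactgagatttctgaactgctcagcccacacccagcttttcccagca
Ifi44: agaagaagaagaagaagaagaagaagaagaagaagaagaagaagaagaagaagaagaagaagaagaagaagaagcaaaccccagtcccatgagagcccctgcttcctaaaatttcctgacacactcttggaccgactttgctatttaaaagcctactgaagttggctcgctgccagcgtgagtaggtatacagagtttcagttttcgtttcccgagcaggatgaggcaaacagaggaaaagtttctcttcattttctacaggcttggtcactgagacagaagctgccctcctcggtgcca
Gbp3 and Ifit3 each held 2 matches, all on the reverse strand, and Ifi44 held no exact match in this window. Other spacings or letters were not searched. Of the 34 tested interferon genes 28 had a promoter entry among those searched, which for this list left out 1 chromosome. Of the 28, 13 (46.4%) held a match in at least 1 entry, against 3.44% of all 32851 entries. The first share counts genes, some with several entries, and the second counts entries and keeps the chromosome left out for the list. Interferon-response genes are induced through GAAA repeats, so a high share followed from the choice of list. It says nothing about these libraries. Of the 10 genes with an unadjusted p under 0.05, 8 had an entry among those searched and 5 held a match. Several of these genes are near-identical neighbours (the Gbp genes, and Ifit3 with Ifit3b), and how reads shared between copies were counted is not given in the sources used here.

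Other effectors stood lower as well, here chosen after their values were seen. Ifit3, which binds foreign RNA together with Ifit1, had 2.02, 2.59 and 3.98 FPKM in +US PLLA/ZnO@Col, against 8.35, 5.06 and 5.24 FPKM in +US PLLA. Oasl2, an oligoadenylate synthetase-like protein, had 1.16, 2.05 and 2.47 FPKM in +US PLLA/ZnO@Col, against 3.66, 2.78 and 3.99 FPKM in +US PLLA. Ddx58, the RNA sensor RIG-I, had 8.07, 7.41 and 9.21 FPKM in +US PLLA/ZnO@Col, against 12.3, 10.8 and 12.2 FPKM in +US PLLA. None of the 3 overlapped between groups, and for these genes +US PLLA replicate 3 lay with its own group. Their log2 fold changes were -1.04, -0.79 and -0.43, and Ddx58 was at -0.15 with the GC offset. The upstream factor Irf7 was at -0.50 (unadjusted p 0.151) and its relative Irf9 at -0.39 (unadjusted p 0.0588). The 4 higher genes of the list were the transcription factor Irf1, the antigen-processing genes Psmb8 and Tap1, and Ifi35, all at an unadjusted p above 0.05. B2m, the light chain of MHC class I, was at -0.32 (unadjusted p 0.0439) and at 0.14 with the GC offset. The MHC class I heavy chain gene H2-K1 had 14.6, 46.0 and 42.1 FPKM in +US PLLA/ZnO@Col against 43.2, 34.8 and 54.9 FPKM in +US PLLA, so that its low value was that of replicate 1 alone.

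**Figure D2:**
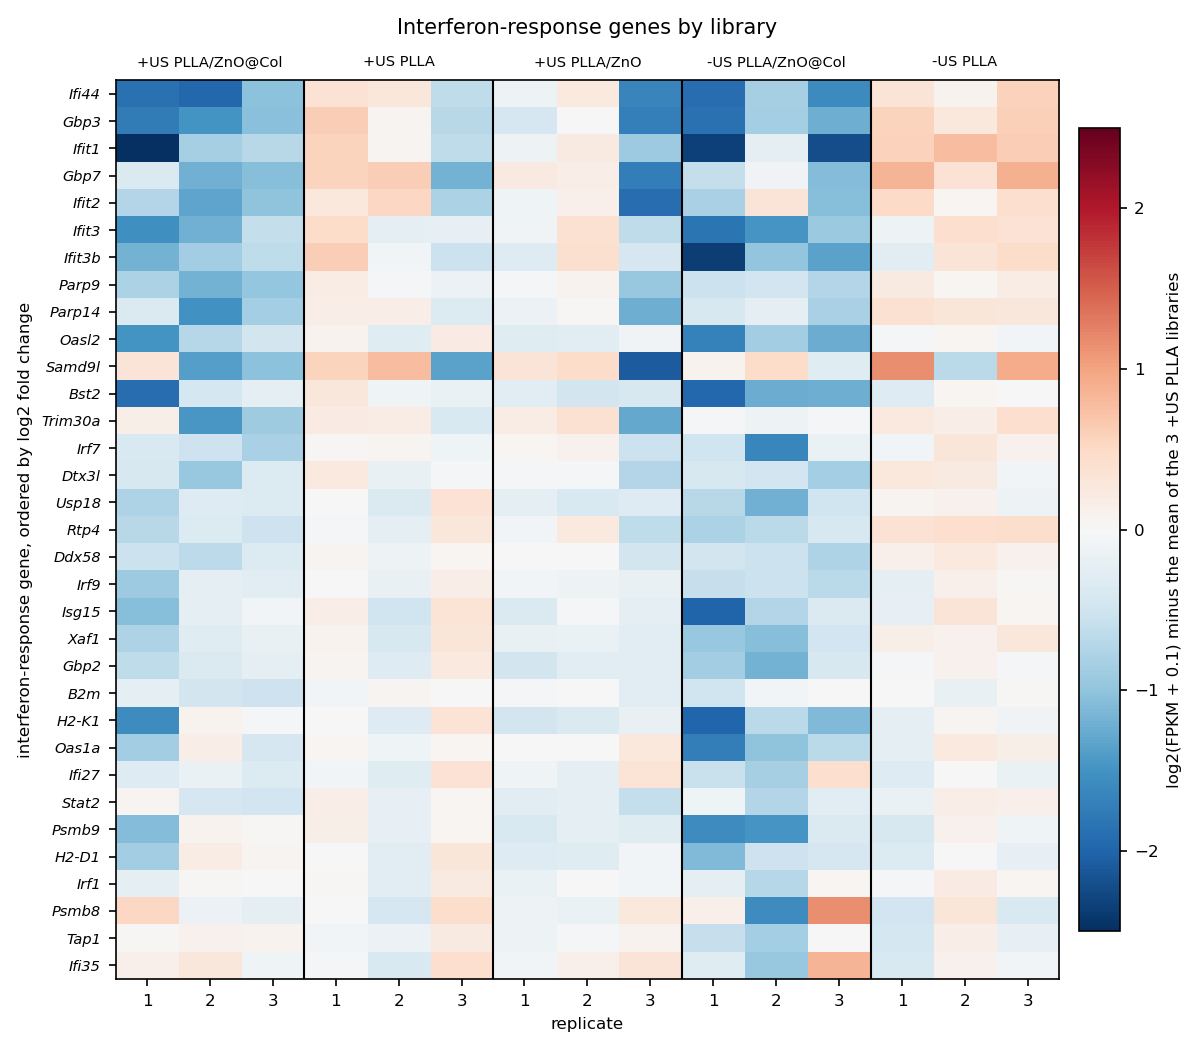
Each cell gives log2(FPKM + 0.1) of 1 of 33 tested interferon-response genes (rows, from the lowest fold change at the top) in 1 library (columns, by group), minus the mean of the 3 +US PLLA libraries. The libraries on PLLA/ZnO@Col, with and without ultrasound, are mostly blue (lower), and +US PLLA/ZnO replicate 3 is blue in the upper rows.

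Interferon-response genes were also low on PLLA/ZnO@Col without ultrasound. On the TMM log2 scale, the median interferon gene lay at -0.62, -0.38 and -0.30 relative to the +US PLLA mean in the 3 +US PLLA/ZnO@Col libraries, at -0.56, -0.72 and -0.43 in the 3 -US PLLA/ZnO@Col libraries, and at 0.02, 0.16 and 0.11 in the -US PLLA libraries. The +US PLLA/ZnO libraries lay at -0.06, 0.05 and -0.36. For -US PLLA/ZnO@Col against -US PLLA, which shares no library with the ultrasound comparison, 32 of the 34 genes were lower, with a median log2 fold change of -0.75, and 22 were lower at an unadjusted p under 0.05, against 3.65% of all tested genes. Here too the list was chosen with earlier results of these data known. Y-linked reads were few in -US PLLA/ZnO@Col replicates 1 and 3 (1.68 and 2.48 CPM), as in +US PLLA/ZnO@Col replicate 1 (3.12 CPM). In -US PLLA/ZnO@Col replicate 2 they were at 151.7 CPM. The part of this likeness between libraries in the shared direction was not tested. None of the 34 passed the adjusted threshold there by edgeR either. The difference between the membrane contrasts with and without ultrasound had a median of 0.27 over the list, with 2 members at an unadjusted p under 0.05, against 1.22% of all tested genes, and none past adjustment.

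Beyond the lists, the extremes of the comparison were the 12 largest fold changes in each direction at an unadjusted p under 0.01, with at least 2 FPKM in the higher group and no overlap of replicates. All 24 had an adjusted p of 0.561. The 12 lower genes held 3 more interferon-linked genes, the GTPases Gbp6 and Gbp9 and the nuclear sensor family member Mndal. Gbp6 had 0.993, 1.05 and 1.21 FPKM in +US PLLA/ZnO@Col, against 4.26, 3.83 and 2.29 FPKM in +US PLLA. Gbp9 had 2.13, 2.37 and 2.46 FPKM in +US PLLA/ZnO@Col, against 8.72, 6.71 and 3.18 FPKM in +US PLLA. Both sets of PLLA/ZnO@Col libraries were tight, and +US PLLA replicate 3 was again the lowest of its group. Gbp6 was at -1.61 (SE 0.49), Gbp9 at -1.36 (SE 0.46) and Mndal at -1.28 (SE 0.41) on the log2 scale, and with the GC offset Gbp9 was at -0.85 and Mndal at -0.52.

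Genes outside the interferon list were lower too. Sarnp, a factor in mRNA export, had 2.78, 2.41 and 3.51 FPKM in +US PLLA/ZnO@Col, against 10.6, 6.49 and 14.2 FPKM in +US PLLA. Fas, the death receptor, had 7.20, 11.8 and 12.6 FPKM in +US PLLA/ZnO@Col, against 24.8, 27.7 and 21.2 FPKM in +US PLLA. Enpp2, the secreted enzyme autotaxin, had 0.473, 1.13 and 1.48 FPKM in +US PLLA/ZnO@Col, against 2.59, 2.89 and 2.80 FPKM in +US PLLA. Replicate 1 was the lowest of the PLLA/ZnO@Col libraries for Fas and Enpp2. Rspo2, a secreted enhancer of Wnt signalling, had 1.53, 1.51 and 2.11 FPKM in +US PLLA/ZnO@Col, against 4.27, 3.68 and 3.05 FPKM in +US PLLA. The log2 fold changes were -1.75 (SE 0.52) for Sarnp, -1.15 (SE 0.33) for Fas, -1.34 (SE 0.42) for Enpp2 and -1.02 (SE 0.27) for Rspo2. Fas was at -0.71 with the GC offset. The remaining lower genes were Gdpd2, a glycerophosphodiester phosphodiesterase, Nanp, a phosphatase of sialic acid synthesis, and Cyp39a1, an oxysterol hydroxylase, at -1.28, -1.12 and -0.97, and Cyp39a1 was at -0.55 with the offset.

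Among the higher genes, Cyp1a1, the cytochrome P450 best known as a target of the aryl hydrocarbon receptor, stood first. It had 14.4, 11.4 and 7.35 FPKM in +US PLLA/ZnO@Col, against 3.51, 3.96 and 6.60 FPKM in +US PLLA. The groups did not overlap, although +US PLLA replicate 3 and +US PLLA/ZnO@Col replicate 3 were close. The log2 fold change was 1.33 (SE 0.34), and it was also 1.33 with the GC offset. Ppp1r15a, the stress-induced subunit GADD34 that directs a phosphatase to the translation factor eIF2 alpha, had 12.7, 8.56 and 8.34 FPKM in +US PLLA/ZnO@Col, against 5.91, 5.32 and 6.32 FPKM in +US PLLA. Its log2 fold change was 0.84 (SE 0.22). Piezo1, a mechanically gated cation channel, had 51.5, 42.1 and 38.7 FPKM in +US PLLA/ZnO@Col, against 27.1, 27.8 and 31.1 FPKM in +US PLLA. All 3 PLLA/ZnO@Col libraries lay above all 3 PLLA libraries, with a log2 fold change of 0.71 (SE 0.21), which was 0.47 with the GC offset.

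Other higher genes were Glis1, a zinc finger transcription factor, at 0.87, Klhl21, an adaptor of cullin ubiquitin ligases, at 0.73, Slc5a6, a sodium-dependent vitamin transporter, at 0.70, and Zswim4 at 0.68. Plcd3, a phospholipase C, was at 0.68, Cad, the enzyme that begins pyrimidine synthesis, at 0.66, and the tyrosine kinase Tnk2 at 0.63. Zfpm1, a cofactor of GATA factors, was at 0.63. With the GC offset Klhl21 was at 0.48, Zswim4 at 0.45, Cad at 0.44, Plcd3 at 0.42, Tnk2 at 0.38 and Zfpm1 at 0.36. For 11 of the 12 higher genes +US PLLA replicate 3 was the highest of its group, and for 9 of the 12 lower genes it was the lowest, against 54.9% and 33.7% of all tested genes. With the GC offset 21 of the 24, which were chosen for their p in the fit without it, had an unadjusted p under 0.05.

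**Figure D3:**
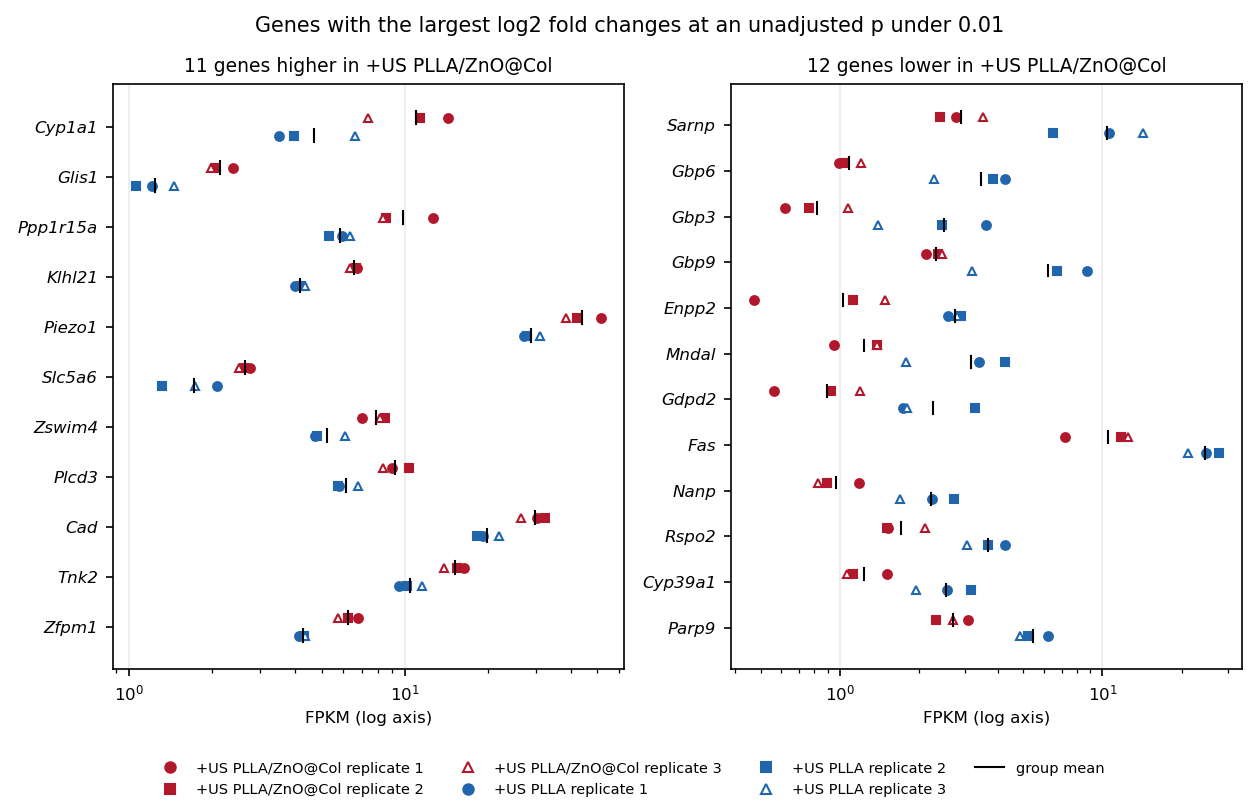
FPKM on a log axis of 11 of the 12 higher genes and of the 12 lower genes in each library, red for +US PLLA/ZnO@Col and blue for +US PLLA, with a symbol per replicate and a black bar at the group mean. The open blue triangle, +US PLLA replicate 3, is the blue point nearest to red for most genes.

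Without ultrasound the same 24 genes mostly stood on the same side. For -US PLLA/ZnO@Col against -US PLLA all 12 higher genes were higher and 11 of the 12 lower genes were lower, where 78.0% of all tested genes had the same sign in both comparisons. Of the 12 higher genes 9 were higher there at an unadjusted p under 0.05 (8.34% of all tested genes were), and of the 12 lower genes 10 were lower (3.65% of all tested genes). None passed the adjusted threshold there by edgeR, the smallest adjusted p being 0.144 among the higher genes and 0.182 among the lower. Of the -US PLLA/ZnO@Col libraries, replicates 1 and 3 had few Y-linked reads, as had +US PLLA/ZnO@Col replicate 1, and the part of this was not tested. Cyp1a1 had 12.7, 5.49 and 11.7 FPKM in -US PLLA/ZnO@Col, against 4.69, 3.78 and 2.75 FPKM in -US PLLA. The exception was Sarnp, with a log2 fold change of 0.38 without ultrasound and a difference between the contrasts of -2.13 (unadjusted p 0.00959). In +US PLLA/ZnO, which lacks the collagen, Cyp1a1 had 3.20, 3.97 and 5.08 FPKM and Piezo1 had 26.4, 25.6 and 30.0 FPKM, against 3.51 to 6.60 and 27.1 to 31.1 FPKM in +US PLLA.

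Most adhesion genes had higher levels on PLLA/ZnO@Col. Of 27 tested genes of focal adhesions and contractile actin 22 were higher and 5 lower, with a median log2 fold change of 0.30, and 8 were higher at an unadjusted p under 0.05 (6.16% of all tested genes were). That 8 was 4, 2 and 3 without +US PLLA/ZnO@Col replicates 1, 2 and 3, and 5, 1 and 4 without +US PLLA replicates 1, 2 and 3, with a median of 0.17 without +US PLLA replicate 2. Over all tested genes the matching higher counts were 397, 264 and 362, and 404, 309 and 780, against 735 with all libraries. Zyx, a focal adhesion protein recruited under tension, had 118.8, 109.3 and 98.6 FPKM in +US PLLA/ZnO@Col, against 74.5, 72.9 and 94.0 FPKM in +US PLLA. Tln1, talin, which couples integrins to actin, had 87.7, 96.0 and 92.0 FPKM in +US PLLA/ZnO@Col, against 72.9, 59.9 and 74.5 FPKM in +US PLLA. Actn1, an actin cross-linker, had 134.7, 99.3 and 101.2 FPKM in +US PLLA/ZnO@Col, against 86.2, 79.9 and 93.0 FPKM in +US PLLA. None of the 3 overlapped between groups. The log2 fold changes were 0.52 (SE 0.19), 0.49 (SE 0.19) and 0.46 (SE 0.19), and with the GC offset 0.27, 0.32 and 0.30. With the GC offset the list's median was 0.14, with 18 higher, 9 lower and 0 members at an unadjusted p under 0.05.

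Collagen receptors were near balance. Of 17 tested integrins and collagen receptors 10 were higher and 7 lower, with a median of 0.02, and with the GC offset 5 were higher and 12 lower, with a median of -0.07. Mrc2, an endocytic receptor for collagen fragments, had 81.8, 79.1 and 73.8 FPKM in +US PLLA/ZnO@Col, against 58.5, 47.8 and 65.0 FPKM in +US PLLA. Itga5, the fibronectin-binding alpha subunit, had 39.6, 42.2 and 40.8 FPKM in +US PLLA/ZnO@Col, against 30.9, 30.9 and 39.9 FPKM in +US PLLA. The groups did not overlap for Mrc2 and overlapped for Itga5, where +US PLLA replicate 3 lay among the PLLA/ZnO@Col libraries. Their log2 fold changes were 0.54 (SE 0.17) and 0.36 (SE 0.14), and 0.32 and 0.16 with the offset. Itgb1, the common beta subunit of collagen-binding integrins, was at -0.44 (SE 0.28), or -0.10 with the offset, and the collagen-activated kinase Ddr2 at -0.56 (SE 0.38). The collagen-binding subunit Itga11 passed the expression filter, at -0.10 (SE 0.26), or -0.30 with the offset. The collagen-binding subunits Itga1 and Itga2 lay under the filter, with 0.0708 to 0.175 and 0 to 0.0167 FPKM in +US PLLA/ZnO@Col, and 0.303 to 0.508 and 0 to 0.0329 FPKM in +US PLLA.

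Genes of mechanical and early response were higher in part. Of 28 tested immediate early genes 22 were higher and 6 lower, with a median of 0.28, and 7 were higher at an unadjusted p under 0.05, against 6.16% of all tested genes. That 7 was 8, 3 and 3 without +US PLLA/ZnO@Col replicates 1, 2 and 3, and 7, 6 and 2 without +US PLLA replicates 1, 2 and 3. The matching higher counts over all tested genes were 397, 264 and 362, and 404, 309 and 780, against 735 with all libraries. The list's median was 0.17 without +US PLLA/ZnO@Col replicate 3. Dusp6, a phosphatase that dampens ERK, had 25.3, 31.8 and 29.6 FPKM in +US PLLA/ZnO@Col, against 23.7, 19.8 and 22.9 FPKM in +US PLLA. Maff, a small Maf transcription factor, had 10.3, 9.53 and 8.58 FPKM in +US PLLA/ZnO@Col, against 6.49, 6.26 and 7.84 FPKM in +US PLLA. Dusp5, a nuclear ERK phosphatase, was at 10.7, 17.6 and 17.6 FPKM in +US PLLA/ZnO@Col and 11.6, 11.1 and 9.06 FPKM in +US PLLA. Dusp6 and Maff did not overlap between groups, and Dusp5 did at PLLA/ZnO@Col replicate 1. Their log2 fold changes were 0.46, 0.55 and 0.60, and with the GC offset Maff was at 0.33 and Dusp5 at 0.37. The list's median was 0.04 with the GC offset, with 17 higher and 11 lower. Egr1, the textbook early gene, was at 0.51 (SE 0.27) and at 0.26 with the offset.

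Of 24 tested targets of the mechanosensitive co-activators YAP and TAZ 13 were higher and 11 lower, with a median of 0.05 that was -0.06 with the GC offset. Ccn2, connective tissue growth factor, had 12.3, 7.65 and 8.99 FPKM in +US PLLA/ZnO@Col, against 5.73, 5.68 and 5.20 FPKM in +US PLLA. It did not overlap between groups, at a log2 fold change of 0.88 (SE 0.33). Ccn1, its relative, had 235.4, 313.7 and 337.8 FPKM in +US PLLA/ZnO@Col, against 242.1, 230.9 and 145.7 FPKM in +US PLLA, and overlapped at 1 library. Ajuba, an adaptor of focal and cell junctions, was at 0.49 and the receptor kinase Axl at 0.43, or 0.31 and 0.23 with the offset. Of 29 tested mechanosensitive channels and calcium signalling genes 16 were higher and 13 lower, with a median of 0.07. Only 2 of the 29 had an unadjusted p under 0.05, Piezo1 and Tmem63a (0.26, or 0.07 with the offset). Both were higher, a share near the 6.16% of all tested genes that were higher at that p. Piezo2, the other Piezo channel, lay at 0 to 0.0032 FPKM in +US PLLA/ZnO@Col and 0 to 0.00523 FPKM in +US PLLA.

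Part of the osteoblast programme was expressed. The matrix genes Col1a1, Sparc and Spp1 were abundant and the osteoblast factor Runx2 was present, while the mineralisation genes Alpl, Bglap and Ibsp and the later factor Sp7 lay under 1 FPKM in all 6 libraries. Col1a1, type I collagen, had 1107, 1085 and 1053 FPKM in +US PLLA/ZnO@Col, against 971.7, 883.6 and 1019 FPKM in +US PLLA. Spp1, osteopontin, had 637.2, 758.6 and 907.6 FPKM in +US PLLA/ZnO@Col, against 1537, 2171 and 1026 FPKM in +US PLLA. Runx2 had 9.49, 6.26 and 8.29 FPKM in +US PLLA/ZnO@Col, against 9.14, 8.12 and 8.44 FPKM in +US PLLA. Col1a1 and Spp1 did not overlap between groups, in opposite directions, and Runx2 did. The log2 fold changes were 0.26 (SE 0.22, unadjusted p 0.254), -0.98 (SE 0.53, unadjusted p 0.0872) and -0.01 (SE 0.20). Col1a1 was at 0.07 and Runx2 at -0.17 with the GC offset. Of 15 tested osteoblast genes 11 were higher and 4 lower, with a median of 0.10 that was 0.01 with the offset and -0.01 without +US PLLA/ZnO@Col replicate 3. Ank, the pyrophosphate exporter that restrains mineralisation, was the member with the smallest p. Ank had 24.6, 26.6 and 23.8 FPKM in +US PLLA/ZnO@Col, against 19.3, 17.9 and 19.0 FPKM in +US PLLA, a log2 fold change of 0.50 (SE 0.14) that was 0.53 with the GC offset.

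Matrix genes differed member by member. Of 24 tested fibrillar collagen and elastic matrix genes 17 were higher and 7 lower, with a median of 0.10. Postn, periostin, a matricellular protein of periosteum, had 11.97, 10.5 and 13.9 FPKM in +US PLLA/ZnO@Col, against 45.0, 49.4 and 18.3 FPKM in +US PLLA. Vcan, the proteoglycan versican, had 10.7, 12.96 and 19.2 FPKM in +US PLLA/ZnO@Col, against 27.0, 33.3 and 26.2 FPKM in +US PLLA. Neither overlapped between groups, with +US PLLA replicate 3 nearest to PLLA/ZnO@Col for Postn. Their log2 fold changes were -1.57 (SE 0.54) and -0.94 (SE 0.59), and -0.95 and -0.57 with the GC offset. Of 22 tested collagen-processing genes 17 were higher and 5 lower, with a median of 0.16 that was -0.02 with the offset. Among 21 tested proteases and inhibitors 9 were higher and 12 lower. Mmp14, a membrane-bound collagenase, had 79.3, 65.9 and 64.0 FPKM in +US PLLA/ZnO@Col, against 52.9, 49.6 and 58.5 FPKM in +US PLLA, without overlap and with a log2 fold change of 0.46 (SE 0.13), which was 0.23 with the offset. Timp2, an inhibitor that also binds Mmp14, was at 0.31 (SE 0.14), or 0.12 with the offset. Of 12 tested basement membrane genes 8 were higher and 4 lower, with a median of 0.07, and with the offset 5 were higher and 7 lower.

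**Figure D4:**
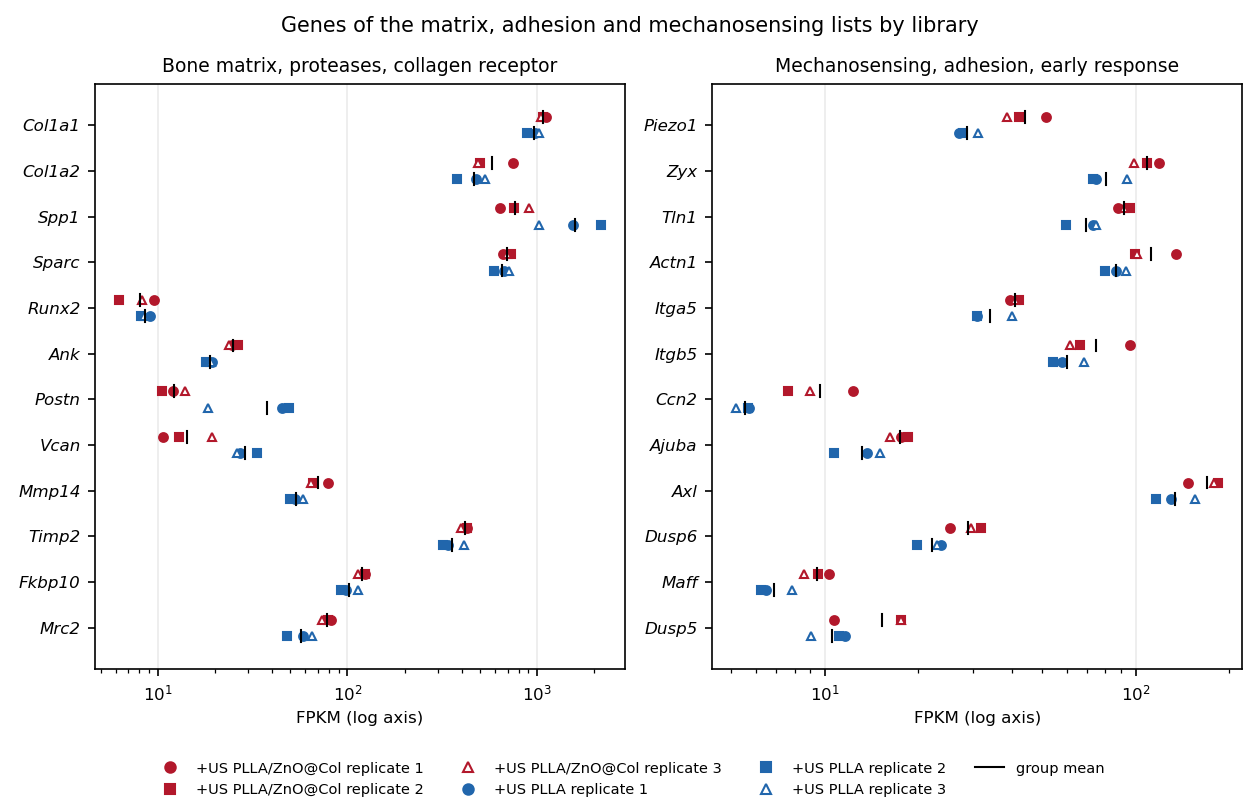
FPKM on a log axis of 12 bone matrix, protease and collagen receptor genes and 12 mechanosensing, adhesion and early-response genes in each library, red for +US PLLA/ZnO@Col and blue for +US PLLA, with a black bar at the group mean. Spp1, Postn and Vcan are lower in all 3 red libraries and Piezo1, Zyx, Ccn2 and Mmp14 are higher, while Runx2 and Sparc overlap.

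BMP and TGF-beta genes were close to balance, and Wnt genes varied with the fit. Of 31 tested BMP and TGF-beta genes 17 were higher and 14 lower, with a median of 0.05 that was -0.17 without +US PLLA/ZnO@Col replicate 3. The cytokine Tgfb1 had 13.2, 10.2 and 9.36 FPKM in +US PLLA/ZnO@Col, against 6.94, 7.67 and 9.40 FPKM in +US PLLA, so that the groups overlapped only at replicate 3, and its log2 fold change was 0.54 (SE 0.16), or 0.36 with the GC offset. Of 23 tested Wnt genes 8 were higher and 15 lower, with a median of -0.06. With the GC offset 4 were higher and 19 lower, with a median of -0.22, while 12 were higher and 11 lower, with a median of 0.07, when +US PLLA/ZnO@Col replicate 1 was left out. Without ultrasound 2 were higher and 21 lower on PLLA/ZnO@Col. Lef1, a Wnt-responsive transcription factor, had 1.55, 1.04 and 1.06 FPKM in +US PLLA/ZnO@Col, against 0.624, 0.712 and 0.539 FPKM in +US PLLA, a log2 fold change of 1.03 (SE 0.31) opposite to that of Rspo2. Among the libraries compared, Lef1 reached the 1 FPKM of the expression filter only in +US PLLA/ZnO@Col.

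Of 22 tested chemokine, cytokine and NF-kB genes 8 were higher and 14 lower, with a median of -0.33, which was -0.21 with the GC offset. Cxcl5, a chemokine for neutrophils, had 4.61, 13.9 and 23.8 FPKM in +US PLLA/ZnO@Col, against 35.2, 41.7 and 37.9 FPKM in +US PLLA. All 3 PLLA/ZnO@Col libraries were lower, with replicate 1 lowest. Its log2 fold change was -1.36 (SE 0.56), and -0.74 with the offset. The acute-phase gene Saa3 had 3.50, 66.6 and 85.5 FPKM in +US PLLA/ZnO@Col, against 89.3, 109.6 and 180.6 FPKM in +US PLLA. Csf1, the macrophage growth factor, was at 0.35 (SE 0.13), or 0.18 with the offset.

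Metallothioneins bind zinc and are induced by it in many cells. Of 18 tested genes of zinc transport and metallothionein 10 were higher and 8 lower, with a median of 0.03 and 0 members at an unadjusted p under 0.05. The metallothionein Mt1 had 177.3, 84.6 and 90.6 FPKM in +US PLLA/ZnO@Col and 74.8, 125.6 and 126.5 FPKM in +US PLLA, with overlapping groups. Mt2 had 346.2, 202.4 and 221.1 FPKM in +US PLLA/ZnO@Col and 216.3, 300.3 and 353.3 FPKM in +US PLLA. Their log2 fold changes were 0.20 (SE 0.28) and -0.08 (SE 0.27), and 0.01 and -0.24 with the GC offset. With ultrasound Mt1 was at -0.25 when +US PLLA/ZnO@Col replicate 1, the library with its highest value, was left out. Without ultrasound Mt1 was at 1.10 (unadjusted p 0.0016), and the difference between the contrasts was -0.90 (unadjusted p 0.041). That replicate 1 had few Y-linked reads, as had -US PLLA/ZnO@Col replicates 1 and 3.

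Growth and metabolism gave mixed values. Of 34 tested cell cycle genes 15 were higher and 19 lower. The replication helicase gene Mcm5 had 65.7, 67.6 and 57.9 FPKM in +US PLLA/ZnO@Col, against 45.4, 42.3 and 48.1 FPKM in +US PLLA, without overlap. Mcm5 was at 0.58, Mcm3 at 0.39 and Mcm2 at 0.49, or 0.28 with the GC offset. Top2a, the topoisomerase of dividing cells, had 31.3, 16.4 and 18.6 FPKM in +US PLLA/ZnO@Col, against 45.1, 54.4 and 26.6 FPKM in +US PLLA, at -0.86 (SE 0.40) and -0.42 with the offset. Of 27 tested ER stress and ATF4 genes 20 were higher and 7 lower, with a median of 0.16, and Shmt2, of mitochondrial one-carbon metabolism, was at 0.62 (SE 0.25) and 0.39 with the offset. Of 22 tested cholesterol synthesis genes 16 were higher and 6 lower, with a median of 0.22 that was 0.04 without +US PLLA/ZnO@Col replicate 1. Slc2a1, the glucose transporter, was at 0.44 (SE 0.14), or 0.25 with the offset, among 30 tested glycolysis and hypoxia genes, of which 18 were higher.

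The 13 mitochondrially encoded transcripts were lower in 12 cases, with a median log2 fold change of -0.56, and their median GC content was 37.1%. With the GC offset 7 were higher and 6 lower, with a median of 0.05, and without +US PLLA replicate 2 the median was -0.10. Of 39 tested ribosomal protein genes 34 were higher and 5 lower, with a median of 0.15 that was 0.00 with the offset. Nuclear oxidative phosphorylation genes had 24 higher and 10 lower members of 34. The antioxidant list had 19 higher and 12 lower members of 31, with Gpx8, an endoplasmic reticulum peroxidase, at -0.57 and -0.14 with the offset. Heat shock genes had 7 higher and 10 lower members of 17, and 9 higher and 8 lower with the offset.

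**Figure D5:**
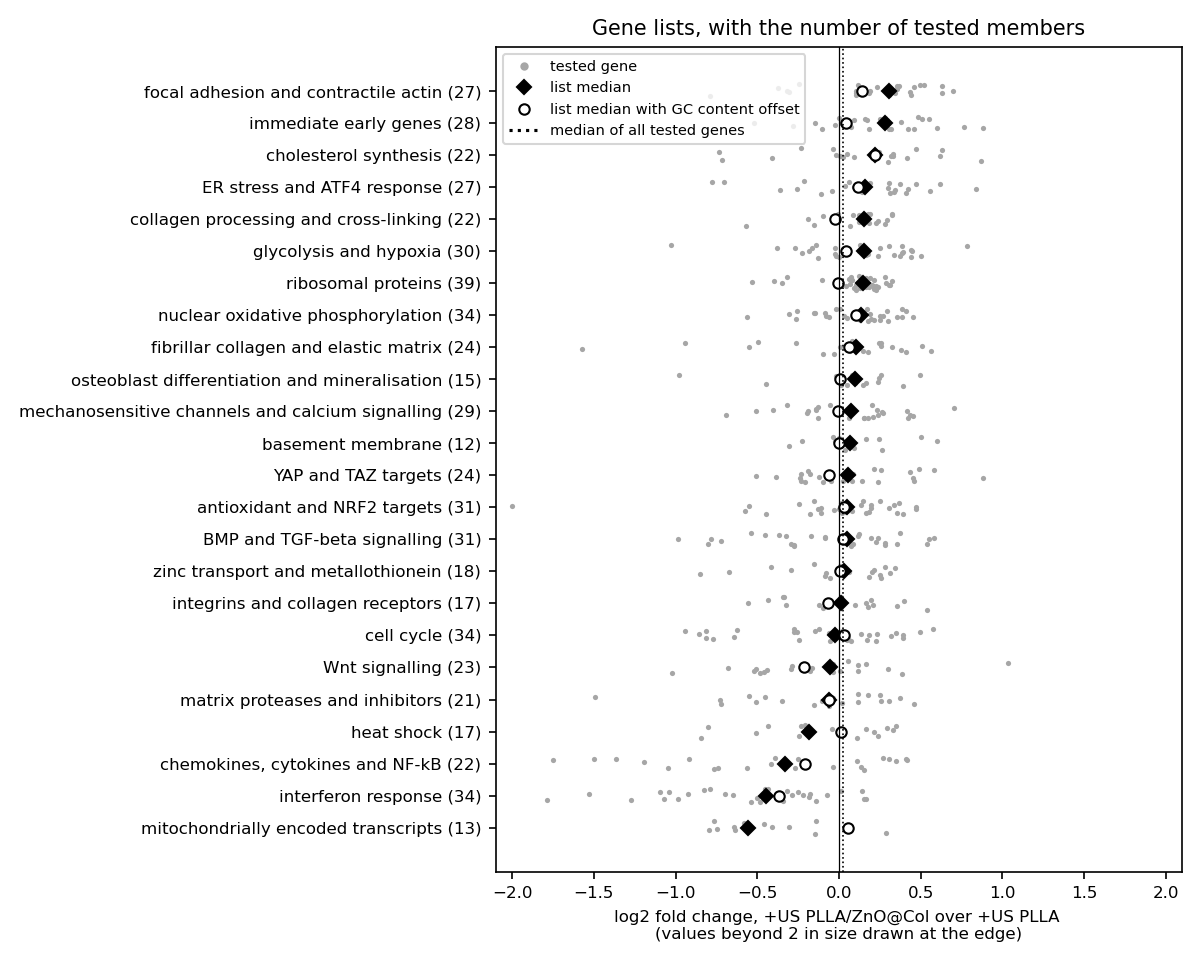
Log2 fold change of each tested gene of 24 lists (grey), with the list median (diamond) and the median after the GC content offset (open circle), from the highest median at the top. Interferon-response genes lie near -0.4 with and without the offset, while the mitochondrially encoded median is -0.56 without it and 0.05 with it.

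Markers of other cell types were summed by list. The summed level of 15 macrophage and osteoclast markers was 25 to 57.1 FPKM in +US PLLA/ZnO@Col and 33.8 to 49.9 FPKM in +US PLLA. Of these markers, Adgre1, C1qa, C1qb and Acp5 were at 0 in all +US PLLA/ZnO@Col libraries but not in all +US PLLA libraries. In +US PLLA only Ocstamp was at 0 in all libraries. The 8 of these markers that passed the expression filter were all lower, like most interferon-response genes, with a median log2 fold change of -0.34. It was -2.15 without the 2 libraries that stood apart, and without +US PLLA replicate 1, or without +US PLLA/ZnO@Col replicate 2 or 3, 4 of the 8 were higher. The 10 endothelial markers summed to 0.604 to 4.89 FPKM in +US PLLA/ZnO@Col and 5.01 to 5.50 FPKM in +US PLLA, nearly all of it Flt1. Kdr, Tie1 and Erg were at 0 in +US PLLA/ZnO@Col, and no endothelial marker was at 0 in all +US PLLA libraries. The 7 adipocyte markers summed to 0.758 to 1.07 FPKM in +US PLLA/ZnO@Col and 0.987 to 1.48 FPKM in +US PLLA. Cd36 was at 0 in all +US PLLA/ZnO@Col libraries, and Pparg and Cfd in all +US PLLA libraries. Chondrocyte markers (12 genes) summed to 21.9 to 23.9 FPKM in +US PLLA/ZnO@Col and 15.2 to 19.4 FPKM in +US PLLA, most of it Sox9, and Acan and Snorc were at 0 in both groups. Col9a1, Col9a2 and Hapln1 were at 0 in all +US PLLA/ZnO@Col libraries only. The kidney androgen-regulated gene Kap was at 0 in +US PLLA/ZnO@Col and at 62.4 FPKM in +US PLLA replicate 3. The 12 epithelial and kidney tubule markers summed to 39.8 to 78.7 FPKM in +US PLLA/ZnO@Col and 39.9 to 126.0 FPKM in +US PLLA. Epcam, Krt19, Cldn7, Slc34a1, Umod and Cdh16 were also at 0 in all +US PLLA/ZnO@Col libraries, while in +US PLLA only Krt18 and Krt19 were at 0 in all libraries. The 9 skeletal muscle markers summed to 0.375 to 1.76 FPKM in +US PLLA/ZnO@Col and 1.38 to 1.82 FPKM in +US PLLA, with Ckm and Mb at 0 in both groups. Myod1 was at 0 in all +US PLLA/ZnO@Col libraries only, and Myog in all +US PLLA libraries only. The 15 mesenchymal and fibroblast surface markers summed to 948.0 to 1040 FPKM in +US PLLA/ZnO@Col and 834.0 to 1130 FPKM in +US PLLA. Osteocyte markers (10 genes) summed to 302.0 to 333.0 FPKM in +US PLLA/ZnO@Col and 278.0 to 340.0 FPKM in +US PLLA. From these last 2 lists, Fap and Sost were at 0 in all +US PLLA/ZnO@Col libraries, and no marker was in all +US PLLA libraries. Markers at 0 in 1 group may lie near the floor of detection, and the part of library depth in these zeros was not tested. In bulk RNA, fewer cells of a type and less RNA per cell cannot be told apart, and the part of these levels in the results was not tested.

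Whether the membrane difference depended on ultrasound was tested directly. For the difference between +US PLLA/ZnO@Col over +US PLLA and -US PLLA/ZnO@Col over -US PLLA, 0 of 11936 genes (0%) reached an adjusted p under 0.05 in edgeR's test and 146 (1.22%) had an unadjusted p under 0.05. That number was 549, 53 and 53 without +US PLLA/ZnO@Col replicates 1, 2 and 3, 92 to 137 without single +US PLLA libraries, 299, 772 and 163 without -US PLLA/ZnO@Col replicates 1, 2 and 3, and 80 to 118 without single -US PLLA libraries. DESeq2 and limma on log2(FPKM + 1) called 0 genes, and limma voom with library weights called 767. The 3 genes of each sign with the smallest p-values, among those with at least 2 FPKM in the highest of the 4 groups, were Apol6, an apolipoprotein L family member, the gelatinase Mmp9 and Alox5ap, the 5-lipoxygenase activating protein, on the higher side, and Hmgn2, a nucleosome-binding protein, Tmem150a, a transmembrane protein, and Pigl, an enzyme of GPI anchor synthesis, on the lower side.

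Mmp9 had 13.3, 12.7 and 16.0 FPKM in +US PLLA/ZnO@Col against 11.3, 9.21 and 17.1 FPKM in +US PLLA, while without ultrasound it had 8.19, 8.06 and 10.2 FPKM on PLLA/ZnO@Col against 13.2, 16.7 and 12.7 FPKM on PLLA. Its groups overlapped with ultrasound and not without, and the difference of the log2 fold changes was 0.89 (unadjusted p 0.0071). Hmgn2 had 25.8, 21.5 and 21.0 FPKM in +US PLLA/ZnO@Col against 33.5, 24.2 and 39.4 FPKM in +US PLLA, and 21.5, 28.4 and 34.2 FPKM in -US PLLA/ZnO@Col against 20.01, 23.0 and 23.1 FPKM in -US PLLA. Its difference was -0.81 (unadjusted p 0.0056). Col6a1, a type VI collagen chain, had 199.6, 268.3 and 291.9 FPKM in +US PLLA/ZnO@Col and 268.4, 237.8 and 265.5 FPKM in +US PLLA, against 149.9, 128.3 and 153.3 FPKM in -US PLLA/ZnO@Col and 175.3, 265.0 and 223.1 FPKM in -US PLLA. It overlapped between membranes with ultrasound and not without, with log2 fold changes of 0.06 and -0.57 and a difference of 0.63 (unadjusted p 0.046). Its fold change with ultrasound was -0.18 after the GC offset. Reads of the Y-linked genes were at 1.68 and 2.48 CPM in -US PLLA/ZnO@Col replicates 1 and 3, as in +US PLLA/ZnO@Col replicate 1, and without these 3 libraries 13 genes were called for the difference between contrasts and 0 for the membrane comparison with ultrasound.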

How the data were processed

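Polyadenylated RNA of MC3T3-E1 cells on membranes was sequenced, with 3 libraries in each of 6 groups. The submitters' processing notes name cutadapt 1.9 and the build GRCm38. Which aligner and counter were run, and whether strand was used, is not given in the sources used here. Deposited by the authors was 1 table of whole-number counts per gene, not normalized, with FPKM values (scaled to transcript length and library size) beside them, both named per the file headers. Genes with an FPKM of at least 1 in at least 3 libraries were kept, 11936 of 30452. Among the libraries compared, Lef1, Has1 and Gm20521 reached 1 FPKM only in +US PLLA/ZnO@Col, and Ifi44 and Gbp10 only in +US PLLA. Counts were normalized by TMM and fitted in edgeR 4.0.16 (R 4.3.3) with a mean per group over all 18 libraries, which leaves 12 residual degrees of freedom, and contrasts were tested two-sided by the quasi-likelihood F-test with Benjamini-Hochberg adjustment at 0.05. The common biological coefficient of variation was 0.28, and the part of depth in the precision was not tested. The procedure was tested on simulated data. Members and gene lists were chosen with earlier results of these data known. Named genes were the 12 largest in each direction, up to 3 per list by smallest p, a fixed panel, and genes said to be chosen later. GC content was that of GENCODE M21 transcripts, with a value for 11926 tested genes. DESeq2 1.42.0, limma 3.58.1, other scalings, filters and left-out libraries were alternatives. Single values of 2 genes are not reported here. No pair of libraries compared agreed within sampling noise.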

Additional observations from a re-analysis of the deposited data

How the results depend on the processing

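For +US PLLA/ZnO@Col against +US PLLA, 0 genes were called under every alternative run except DESeq2, which called 7, and limma voom with library weights, which called 5162. Leaving out each library in turn gave 0 to 0 calls, with 409 to 1726 genes at an unadjusted p under 0.05, the most without +US PLLA replicate 3. For the difference between the membrane contrasts, library weights gave 767 calls, leaving out the 3 libraries with few Y-linked reads gave 13, and each single left-out library gave 0. With the replicate block the counts were 0 and 0. Deviations of same-numbered libraries correlated at 0.25, -0.37 and 0.16, which cannot show whether the numbers mark a batch. By GC-rich minus GC-poor level, replicate 3 was highest in +US PLLA (0.67) and +US PLLA/ZnO (1.36). In +US PLLA/ZnO@Col it was replicate 2 (1.05). The labels name no batch. Of 69 genes given with a fold change, 41 moved by over 1.5 times with the GC offset, 67 kept their sign, and 62 passed the threshold with library weights; the cause was not tested. Signs turned for 5 genes. B2m was at 0.14 with the GC offset and 0.22 with the offset and replicate block. Col6a1 was at -0.0386 by limma on log2(FPKM + 1), -0.0388 on log2(FPKM + 0.1), -0.0069 at an FPKM of at least 5, -0.0085 with only the libraries compared, and -0.18 with the GC offset with or without the replicate block. Mt1 was at -0.26 without the 3 libraries with few Y-linked reads and -0.17 without the 2 that stood apart. With single libraries left out, Col6a1 ranged from -0.0814 to 0.19, Mt1 from -0.25 to 0.36, Mt2 from -0.38 to 0.037 and Runx2 from -0.16 to 0.12.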

Other observations

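The 7 genes that DESeq2 called for +US PLLA/ZnO@Col against +US PLLA, named here after their values were seen, held 2 more interferon-linked genes. Gbp10, a guanylate-binding GTPase, had 0.204, 0.301 and 0.413 FPKM in +US PLLA/ZnO@Col, against 1.65, 1.52 and 0.809 FPKM in +US PLLA. Sp100, a nuclear body protein that interferon induces, had 2.13, 2.25 and 2.46 FPKM in +US PLLA/ZnO@Col, against 3.82, 3.46 and 3.33 FPKM in +US PLLA. Neither overlapped between groups, and their edgeR log2 fold changes were -2.04 and -0.55. Fkbp7, an endoplasmic reticulum prolyl isomerase, had 2.70, 4.43 and 3.76 FPKM in +US PLLA/ZnO@Col, against 7.61, 8.08 and 6.07 FPKM in +US PLLA. Phyh, a peroxisomal hydroxylase, was at -0.69. Has1, a hyaluronan synthase, had 1.52, 1.32 and 1.20 FPKM in +US PLLA/ZnO@Col, against 0.693, 0.764 and 0.801 FPKM in +US PLLA. Plcd3 was described above. The predicted gene Gm20521 had 15.1, 7.40 and 3.54 FPKM in +US PLLA/ZnO@Col and was listed at 0 in all 3 +US PLLA libraries. Among the libraries compared, Gbp10 reached the 1 FPKM of the expression filter only in +US PLLA, and Has1 and Gm20521 only in +US PLLA/ZnO@Col. The adjusted p by edgeR was 0.561 for all 7.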
